A study of Homo sapiens with 16 samples.

Results

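The genes described here are 38 human genes of the hypoxia response and of glycolysis, out of 63677 gene identifiers in the table of read counts. They were chosen by name, with no measured value in the rule: each symbol was looked up in the table of FPKM values, and its Ensembl identifier was used to find its counts. The 38 symbols matched 41 identifiers, of which 3, second identifiers of TPI1, ENO2 and PGK1, had 0 reads and were left out. A filter on low counts kept 37 of the 38 genes for testing. The gene left untested was BNIP3, a mitochondrial autophagy receptor, with 12 reads over all 16 libraries.

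Messenger RNA had been sequenced from 2 colon cancer cell lines, SW620, which derives from a lymph node metastasis, and SW480, which derives from the primary tumour of the same patient. There were 8 groups of 2 libraries, I and II. In SW620 they were cells transduced with estrogen receptor beta (ERB, gene ESR2) and given 10 nM estradiol for 24 h, ERB cells given the solvent DMSO for 24 h, untreated ERB cells, cells transduced with an empty vector, and untransduced parental cells. In SW480 they were ERB cells, empty vector cells and parental cells, all without treatment. All cells grew in DMEM with 10% serum, no group was labelled as kept at low oxygen, and the labels give neither the promoter of the vector nor whether the transduced cells were pools or clones. Nothing says that libraries I and II came from separate cultures, so the spread behind each p-value is that of these libraries and may be technical.

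When oxygen is plentiful, prolyl hydroxylases of the EGLN family mark the alpha subunits of hypoxia-inducible factor (HIF) for destruction. When oxygen is scarce the subunits accumulate, bind short ACGTG or GCGTG cores near their targets, and raise genes for glucose uptake, glycolysis, acid export, vessel growth and matrix modification, along with EGLN genes that feed back on HIF. Many tumour cells run glycolysis at a high rate even with oxygen present, and several of these genes also answer to MYC and to the ATF4 stress pathway.

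The libraries held 12743940 to 18948283 reads. ESR2 had 142 to 187 reads in untreated ERB libraries and 100 to 180 in treated ones, against 1 to 4 reads in empty vector and 0 to 2 in parental libraries, and ESR1, the gene of estrogen receptor alpha, had 0 reads throughout. Most epithelial markers were present in all libraries (KRT8 at 1200 CPM or more, TMM-scaled CPM, library-size-normalised counts). Of the colon markers, VIL1 ran from 98.7 to 654 CPM and CDX2 from 7.72 to 30 CPM, while KRT20 and LGALS4 stayed at 1.14 CPM or less. COL3A1 and PECAM1 had 0 reads. Summed markers of fibroblasts ran from 3.64 to 21.9 CPM, those of leukocytes from 0.225 to 2.39 CPM and those of endothelium from 0.508 to 3.99 CPM. The libraries labelled SW480 did not keep the profile of their parental line. On 298 genes that were at least 8-fold higher in parental SW480 than in parental SW620 cells, the ERB libraries labelled SW480 stood at a median of 17.2% and 21.3% of the parental SW480 level and the empty vector libraries labelled SW480 at 2.22% and 2.17%, while SW620 libraries stood at 1.42% to 2.04%. On 35 genes at least 8-fold higher in parental SW620, the ERB libraries labelled SW480 stood at 54.4% and 48.3% of the parental SW620 level and the empty vector libraries at 28.8% and 66.2%, against 4.58% and 5.59% in parental SW480 and 47.2% to 110% in SW620 libraries. On both sets the transduced libraries labelled SW480 differed from parental SW480 in the direction of SW620. The members SLC2A3, NDRG1 and ADM met the rule of the first set and CA9 that of the second. Members and sets are therefore not separate observations, and the parental values follow from how the sets were chosen. Whether the labels hold, or cells were mixed, was not tested. The libraries also differed in how GC-rich and GC-poor genes stood to each other. The median log2 deviation of the top quartile of genes by GC content minus that of the bottom quartile ran from -2.18 in parental SW480 II to 2.73 in SW480 ERB I, and empty vector libraries I and II of SW480 lay at -0.75 and 2.41. Fits with offsets that take out each library's trend with GC content and transcript length are therefore given beside the main one.

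Promoters are shown for 4 members that were called in 3 or more comparisons and hold a HIF core in the window searched, because these letters are what HIF is known to bind; PGK1, ENO1 and PKM, called in 3 comparisons each, also held a core and are not printed. The window ran from 250 bases before to 50 bases after the annotated start (RefSeq, GRCh38.p14), 5′ to 3′ on the gene's own strand, and capitals mark ACGTG or GCGTG or their reverse complements CACGT or CACGC; neighbouring matches can overlap, as in CACGTG. CA9 lies at chr9:35673678-35673977 (+), PDK3 at chrX:24465036-24465335 (+), ADM at chr11:10304823-10305122 (+) and ALDOC at chr17:28576846-28577145 (-).
CA9: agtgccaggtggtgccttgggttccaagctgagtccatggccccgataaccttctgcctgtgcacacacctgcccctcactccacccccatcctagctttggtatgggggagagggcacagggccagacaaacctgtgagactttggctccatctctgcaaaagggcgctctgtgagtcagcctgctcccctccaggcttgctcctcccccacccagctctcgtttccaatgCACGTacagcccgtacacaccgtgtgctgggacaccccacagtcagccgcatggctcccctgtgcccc
PDK3: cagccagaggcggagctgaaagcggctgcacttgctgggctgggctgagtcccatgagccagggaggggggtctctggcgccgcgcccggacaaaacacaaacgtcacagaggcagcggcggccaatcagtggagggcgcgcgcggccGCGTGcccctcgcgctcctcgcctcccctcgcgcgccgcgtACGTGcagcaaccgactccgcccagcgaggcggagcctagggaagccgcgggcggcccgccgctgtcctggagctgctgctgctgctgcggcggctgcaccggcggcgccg
ADM: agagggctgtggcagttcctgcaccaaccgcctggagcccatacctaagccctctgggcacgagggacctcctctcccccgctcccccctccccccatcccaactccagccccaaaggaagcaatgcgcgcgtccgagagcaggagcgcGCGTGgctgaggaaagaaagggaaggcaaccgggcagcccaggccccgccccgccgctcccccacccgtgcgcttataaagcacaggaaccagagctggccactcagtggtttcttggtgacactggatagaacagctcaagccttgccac
ALDOC: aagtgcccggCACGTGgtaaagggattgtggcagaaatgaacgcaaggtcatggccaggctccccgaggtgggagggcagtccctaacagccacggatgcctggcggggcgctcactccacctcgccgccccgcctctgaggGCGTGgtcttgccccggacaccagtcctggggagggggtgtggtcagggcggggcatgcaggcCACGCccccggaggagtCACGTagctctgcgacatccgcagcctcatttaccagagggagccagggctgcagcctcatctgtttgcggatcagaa
CA9 had its single ACGTG core on the reverse strand, beginning 18 bases before the start, and ADM had a single GCGTG core. PDK3 had 1 core of each kind, and ALDOC had 3 matches to ACGTG and 2 to GCGTG. EGLN3 and P4HA2, which were called in 5 and 4 comparisons, had neither core in this window. RefSeq entries were found for 34 of the 38 members, the first one being used where there were several; VEGFA, NDRG1, BNIP3L and SLC2A3 had none. ACGTG was found in 15 of the 34 (44.1%) and in 21.4% of all 35116 promoters of that length, GCGTG in 15 (44.1%) and in 36.5%, and either core in 24 (70.6%) and in 48.4%. A match is a description of letters, and binding was not measured.

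Across the 16 libraries, the members differed widely in how far their level moved. PFKFB3, which makes the activator of phosphofructokinase, had a highest level 1.91 times its lowest, and ANKRD37, a HIF target, 2.05 times. NDRG1, a hypoxia-induced differentiation gene, had a highest level 191 times its lowest, CA9, a carbonic anhydrase of the cell surface, 66.3 times, and SLC2A3, the high-affinity glucose transporter GLUT3, 51 times. Per transcript length, in the authors' deposited FPKM, the median level was 5000 for GAPDH, 3160 for PKM and 2640 for ENO1, against 46.2 for CA9, 23.8 for SLC2A3 and 0.127 for LOX. The 17 glycolytic enzyme genes together took 1.08% of the reads in both DMSO libraries and 3.72% in SW480 empty vector II.

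**Figure D1:**
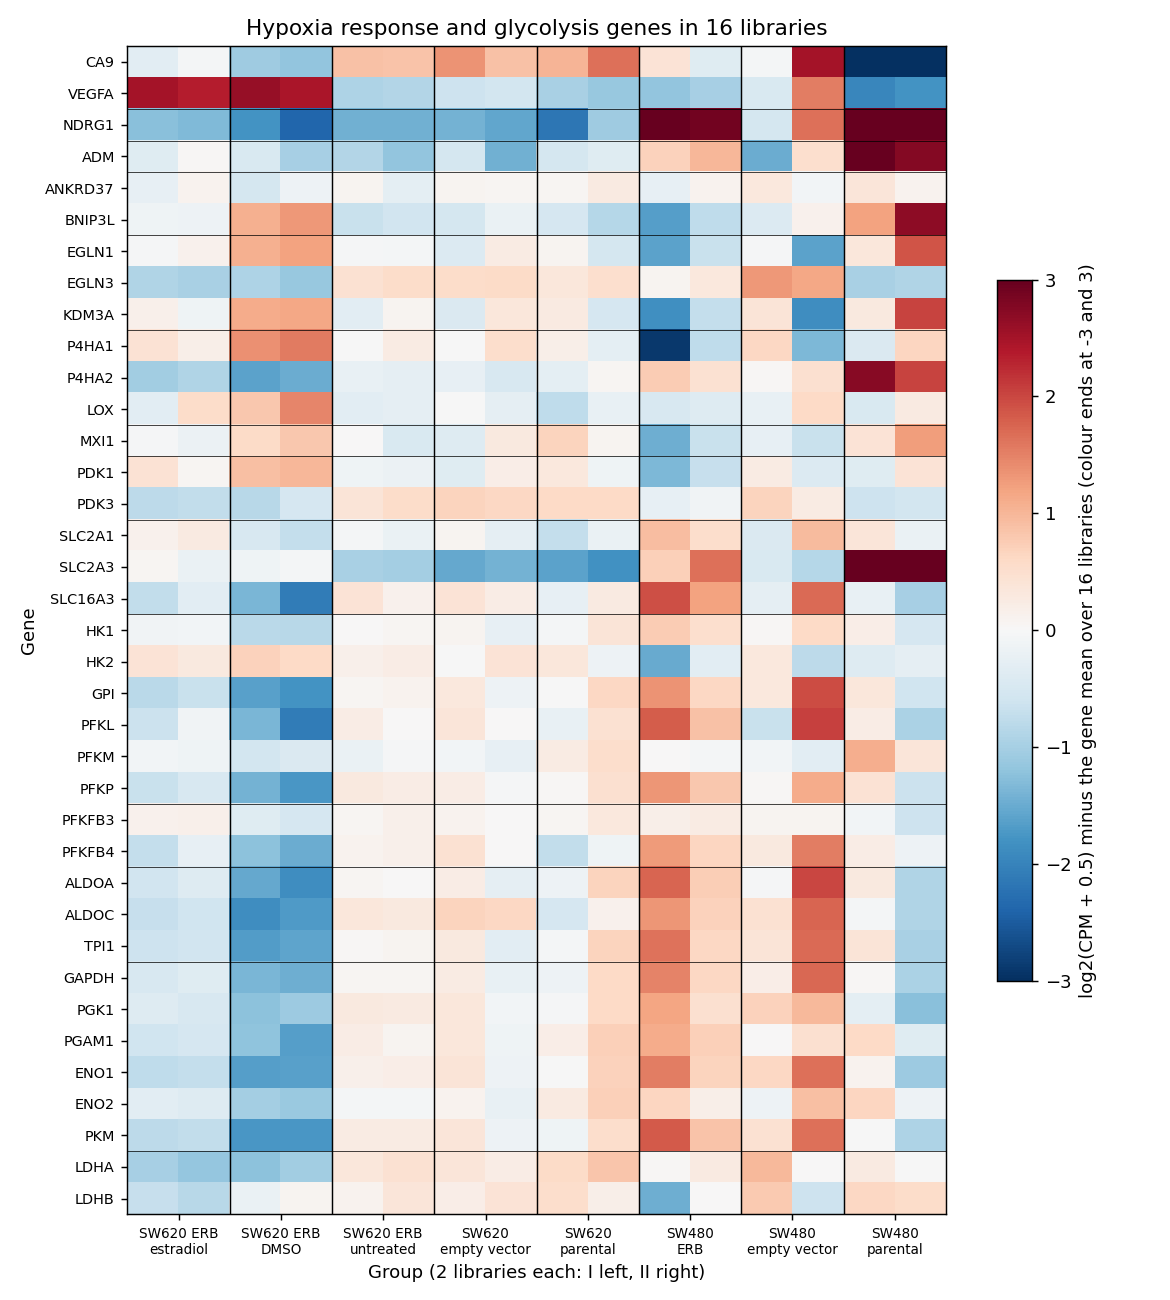
Level of 37 members in 16 libraries as log2(CPM + 0.5) minus the gene's mean over the libraries, red above and blue below. Most glycolytic enzymes from GPI down to LDHA are bluest in the DMSO libraries, while PGK1 is lowest in parental SW480 II. NDRG1, ADM and SLC2A3 are reddest in parental SW480.

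In SW620 cells with ERB, both treatments were set against untreated cells, and estradiol against its solvent. DMSO cells had 12 of 37 members called, 2 higher and 10 lower, where 6.15% of all 17464 genes tested were called; called means that edgeR's quasi-likelihood test over all 16 libraries gave an adjusted p (Benjamini-Hochberg) under 0.05. VEGFA, the vessel growth factor, and BNIP3L, a mitochondrial autophagy receptor, rose, and 7 of the 17 glycolytic enzymes fell. Estradiol cells had 4 members called against untreated cells, VEGFA higher and EGLN3, PDK3 and LDHA lower, where 1.73% of genes were called. Both comparisons share the untreated libraries. Estradiol against DMSO had 0 members called and 0 of all genes (0%), with 8 members at an unadjusted p under 0.05 and 0 members called by DESeq2. In these bulk libraries, fewer cells with a gene on and less RNA per cell cannot be told apart.

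VEGFA was the member with the highest rise. It stood at 157 and 143 CPM in estradiol libraries and at 171 and 152 CPM in DMSO libraries, against 14.3 and 14.8 CPM in untreated ERB libraries. All 4 treated libraries lay above every other library of the study, the nearest being SW480 empty vector II at 80.4 CPM. The log2 change was 3.37 ± 0.50 (SE, adjusted p = 0.011) for estradiol and 3.47 ± 0.50 (adjusted p = 0.0067) for DMSO. Estradiol minus DMSO was -0.10 on the log2 scale. VEGFA is also a target of the ATF4 stress pathway. A list of 20 amino acid and ER stress genes summed to 7500 and 7660 CPM in estradiol libraries, 5160 and 5130 CPM in DMSO libraries and 7570 CPM in SW480 empty vector II, against 1430 to 1730 CPM in all other libraries; its part in the VEGFA level was not tested.

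Other HIF targets lay lower, higher or level with treatment. CA9 stood at 32.3 and 38.6 CPM with estradiol and 19.1 and 17.4 CPM with DMSO, against 74.5 and 73.6 CPM untreated. These groups did not overlap. Between 2 groups of 2 libraries, 33.3% of genes would separate by chance alone. The share of all genes that did separate is not given here for any comparison. The log2 difference of CA9 in DMSO from untreated was -2.02 ± 0.61 (adjusted p = 0.068). NDRG1 was low throughout SW620, at 2.99 and 2.82 CPM with estradiol, 1.91 and 1.10 CPM with DMSO and 2.59 CPM in both untreated libraries. ADM, the vasodilator adrenomedullin, stood at 3.05 and 4.19 CPM with estradiol, 2.81 and 1.79 CPM with DMSO and 1.99 and 1.52 CPM untreated. Neither gene passed the test. BNIP3L rose to 17.8 and 21.0 CPM with DMSO, against 5 and 5.38 CPM untreated (log2 1.90 ± 0.49, adjusted p = 0.042), and stood at 7.51 and 7.39 CPM with estradiol. With GC and length offsets its DMSO change was 0.94 ± 0.44 (adjusted p = 0.14).

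EGLN3, a HIF prolyl hydroxylase that HIF itself induces, fell in both treatments. It stood at 5.19 and 4.88 CPM with estradiol and 5.10 and 4.32 CPM with DMSO, against 14 and 14.9 CPM untreated, with no overlap. The log2 change was -1.52 ± 0.29 (adjusted p = 0.024) for estradiol and -1.61 ± 0.29 (adjusted p = 0.011) for DMSO. PDK3, a kinase that shuts pyruvate out of the mitochondrial cycle, did the same. It stood at 7.57 and 7.83 CPM with estradiol and 7.32 and 9.34 CPM with DMSO, against 17.8 and 19.8 CPM untreated. Its log2 change was -1.29 ± 0.29 (adjusted p = 0.048) for estradiol and -1.17 ± 0.29 (adjusted p = 0.036) for DMSO. The PDK3 calls held in 9 of 18 alternatives each, and those of EGLN3 in 9 for estradiol and 11 for DMSO. P4HA2, a collagen prolyl hydroxylase, stood at 11.5 and 12.6 CPM with estradiol and 7.61 and 8.19 CPM with DMSO, against 20.5 and 19.8 CPM untreated. It was called for DMSO (log2 -1.35 ± 0.32, adjusted p = 0.031).

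**Figure D2:**
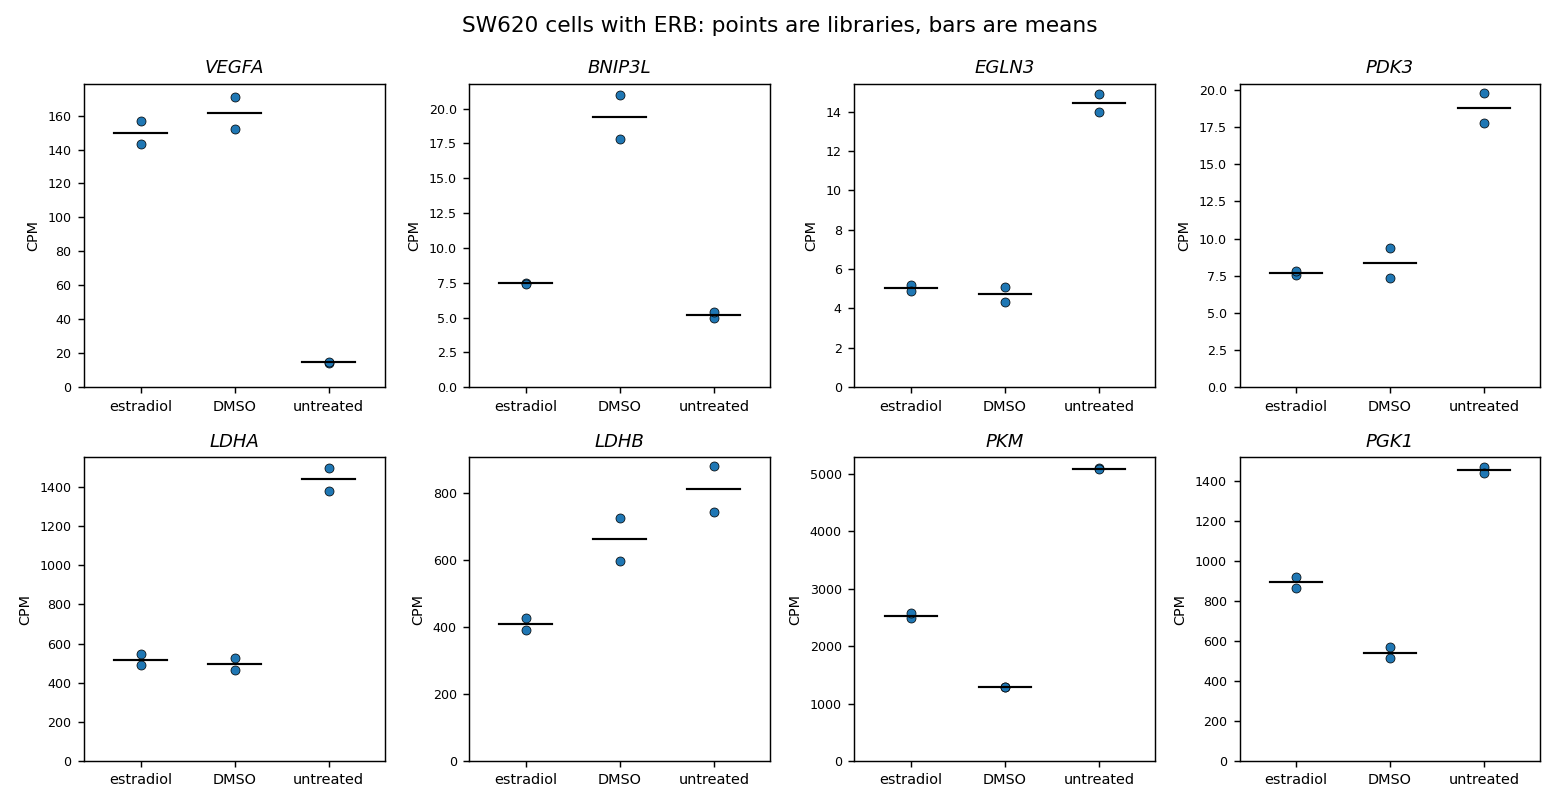
Level (CPM) of 8 members in SW620 cells with ERB given estradiol, DMSO or nothing; points are libraries and bars are means of 2. VEGFA lies at 143 to 171 CPM in the treated libraries and under 15 CPM in untreated ones, and LDHA at 465 to 544 CPM in treated libraries and at 1380 and 1500 CPM in untreated ones.

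Most glycolytic enzymes were lower with DMSO: the log2 difference was negative for 16 of 17, with a median of -1.60, beside a median of -1.01 over the 37 members and of 0.00 over all genes. The exception was HK2, a hexokinase, at 0.47. PKM, the pyruvate kinase gene, stood at 2490 and 2570 CPM with estradiol and 1280 CPM in both DMSO libraries, against 5100 and 5090 CPM untreated. It was called for DMSO (log2 -1.99 ± 0.48, adjusted p = 0.034), and DMSO, estradiol and untreated libraries lay apart in that order from low to high. PGK1, phosphoglycerate kinase, had the same order, at 922 and 867 CPM with estradiol and 512 and 567 CPM with DMSO, against 1470 and 1440 CPM untreated. Its DMSO change was -1.43 ± 0.37 (adjusted p = 0.043). ALDOC, an aldolase, stood at 4.45 and 4.76 CPM with estradiol and 1.70 and 1.96 CPM with DMSO, against 9.57 and 9.29 CPM untreated (DMSO log2 -2.36 ± 0.49, adjusted p = 0.02). The phosphofructokinase gene PFKP (-1.82 ± 0.42, adjusted p = 0.029), the mutase gene PGAM1 (-1.60 ± 0.38, adjusted p = 0.032) and the enolase gene ENO1 (-1.82 ± 0.48, adjusted p = 0.045) also fell with DMSO. For estradiol against untreated the same list had a median of -0.70, with 15 of 17 negative and LDHA called. Summed epithelial markers stood at 6040 and 7140 CPM with estradiol and 3410 and 2990 CPM with DMSO, against 8920 and 8880 CPM untreated, with 1 of 7 tested markers called lower for DMSO and 0 for estradiol; their part in the enzyme values was not tested.

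The enzyme at the end of the pathway, lactate dehydrogenase, is made from LDHA and LDHB. LDHA, which favours lactate production, stood at 544 and 490 CPM with estradiol and 465 and 527 CPM with DMSO, against 1380 and 1500 CPM untreated; the treated groups overlapped each other and lay below untreated. Its log2 change was -1.47 ± 0.32 (adjusted p = 0.042) for estradiol and -1.53 ± 0.32 (adjusted p = 0.02) for DMSO. LDHB, which favours pyruvate, stood at 426 and 390 CPM with estradiol and 598 and 727 CPM with DMSO, against 742 and 882 CPM untreated. It was called in neither comparison. Reads of LDHA copies in the genome equalled 17.5% of the gene's own reads, so its level is uncertain to that extent.

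Neither glucose transporter gene passed the test. SLC2A1, the widespread transporter GLUT1, stood at 1220 and 1340 CPM with estradiol and 801 and 685 CPM with DMSO, against 1070 and 972 CPM untreated, and was not called. SLC2A3 stood at 65.6 and 54.9 CPM with estradiol and 58.2 and 61.3 CPM with DMSO, against 32.1 and 30.9 CPM untreated. Its estradiol difference was 0.94 ± 0.30 (adjusted p = 0.15). The lactate exporter gene SLC16A3 (log2 -1.99 ± 0.55, adjusted p = 0.053), GPI (-1.79 ± 0.50, adjusted p = 0.054) and PFKFB4 (-1.55 ± 0.43, adjusted p = 0.055) came close to the threshold for DMSO. Members not called ranged from -2.02 to 2.81 for DMSO and from -1.06 to 1.24 for estradiol, and over all members tested the estradiol median was -0.48, against 0.00 over all genes.

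**Figure D3:**
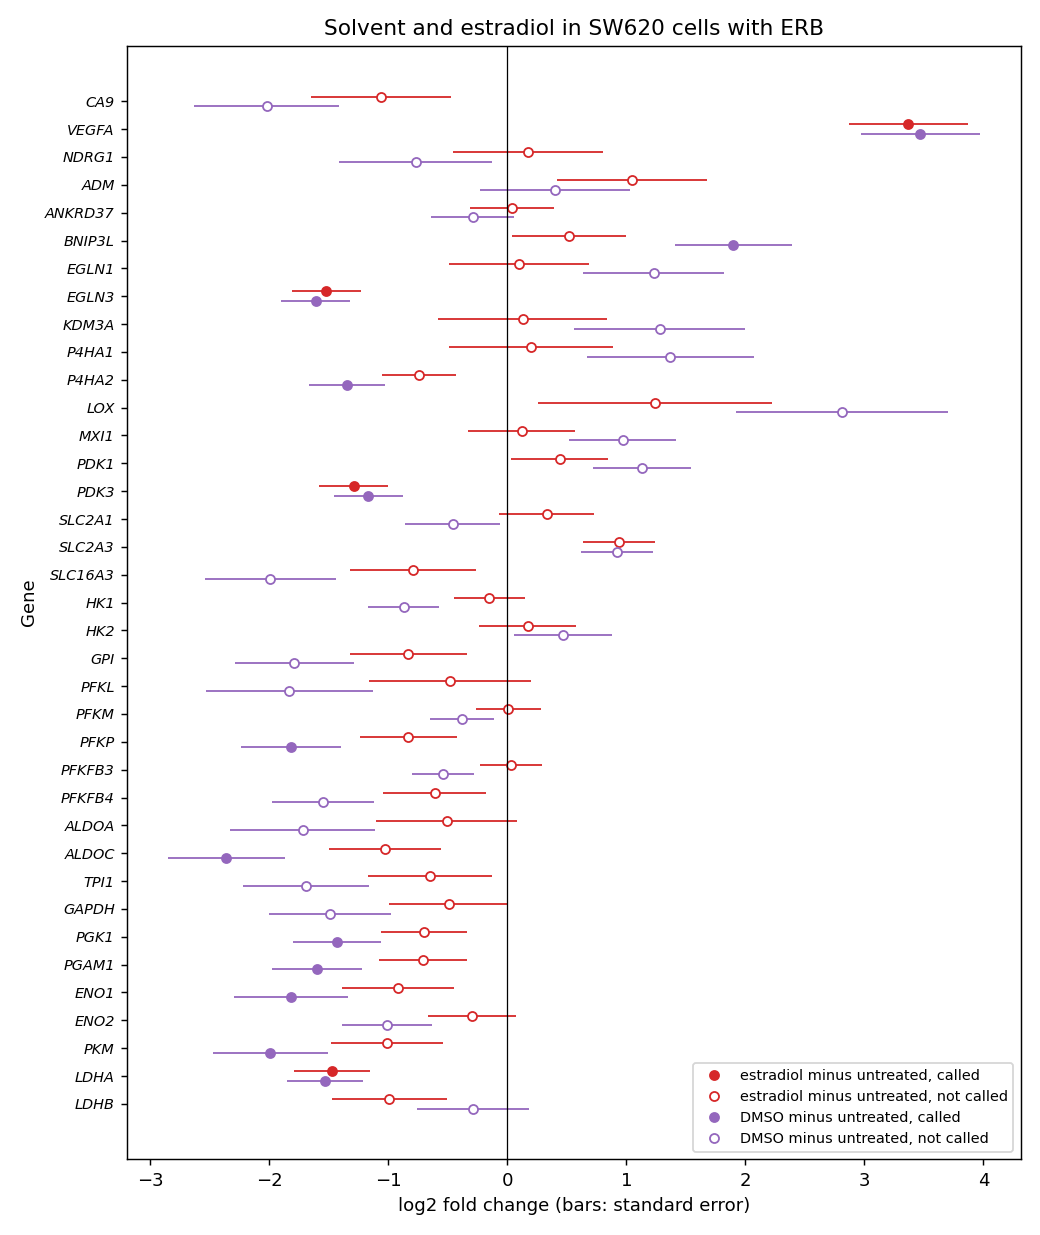
Log2 fold change with its standard error for 37 members in SW620 cells with ERB, estradiol (red) and DMSO (purple) each minus untreated; filled points are called. VEGFA lies near 3.4 in both, and the glycolytic enzymes lie further left for DMSO than for estradiol, a difference for which 0 members were called.

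Set against DMSO, estradiol had its smallest p-values for BNIP3L (log2 -1.38 ± 0.48), ALDOC (1.33), PFKP (0.99) and HK1 (0.72), each with an adjusted p = 0.24. BNIP3L was lower with estradiol than with DMSO in both libraries, and ALDOC higher. The glycolytic enzymes had a median of 0.90, with 15 of 17 positive, and all 37 members a median of 0.65, against 0.06 over all genes. The member differences ranged from -1.57 to 1.35. Over all genes, 3467 had an unadjusted p under 0.05 here.

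The DMSO libraries had fewer reads on GC-rich genes, with a GC gap of -1.50 and -2.04 (log2), against -0.11 and -0.15 in untreated ERB libraries, while estradiol libraries lay at 0.12 and 0.59. Of the 17 glycolytic enzyme genes, 5 lay in the top quartile by GC content and 0 in the bottom one. Per library, the median enzyme stood at -0.62 and -0.49 from its mean over the study with estradiol and at -1.37 and -1.59 with DMSO, against 0.16 and 0.10 untreated. After adjustment for GC and length the values were -0.68 and -0.64 with estradiol and -0.98 and -1.08 with DMSO, against 0.17 and 0.13 untreated. With the offsets, 21 members were called for DMSO (1 higher, 20 lower, 14 of them glycolytic enzymes), where 20.9% of genes were called, and 15 for estradiol against untreated (2 higher, 13 lower, 8 of them enzymes), where 15.7% were called. In a fit of the 10 SW620 libraries alone, 30 members were called for DMSO (9 higher, 21 lower), where 48.8% of genes were called, 14 for estradiol against untreated (20.9% of genes), and 25 for estradiol against DMSO (20 higher, 5 lower), where 53% were called. With both changes at once, the last count was 13, and the share of all genes called in that fit is not given here.

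**Figure D4:**
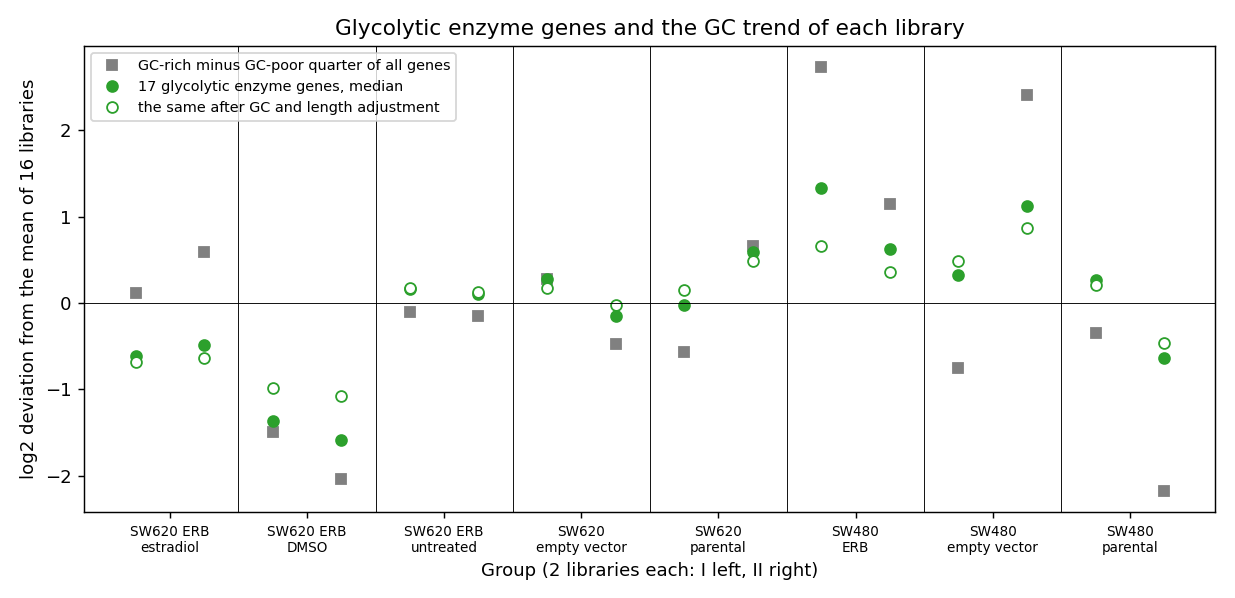
Per library, the log2 gap between GC-rich and GC-poor genes (grey squares) and the median deviation of 17 glycolytic enzyme genes from their mean, before (filled) and after (open) adjustment for GC content and length. The DMSO libraries lie lowest in both states, at -0.98 and -1.08 after adjustment, and the estradiol libraries at -0.68 and -0.64.

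Leaving out a library weakened the 16-library result: without ERB untreated I or II, or DMSO I or II, 0 members were called for DMSO against untreated, and without ERB untreated I or II, or estradiol I or II, 0 were called for estradiol against untreated. In the fit of SW620 libraries alone, such omissions left fewer members called than the full fit did. For estradiol against DMSO the calls depended on which library was left out. Shares of all genes called in fits with a library left out are not given here.

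Among 71 further tested genes of the pathway, 9 were called for DMSO, 4 higher and 5 lower (12.7%, where 6.15% of all genes were called). For estradiol against untreated 5 were called (7.04%, where 1.73% of all genes were called). VLDLR, a lipoprotein receptor (log2 2.96 for DMSO and 2.51 for estradiol), STC2, a stanniocalcin (2.60 and 2.62), and HKDC1, a hexokinase relative (1.58 and 1.95), rose in both. SLC2A4, the insulin-responsive transporter (-2.44), and the enolase gene ENO3 (-1.68) fell with DMSO. DDIT4, an mTOR inhibitor induced by hypoxia and by ER stress, stood at 494 and 548 CPM with estradiol and 312 and 265 CPM with DMSO, against 14.9 and 14.2 CPM untreated (estradiol log2 5.16 ± 1.01, adjusted p = 0.028). The chemokine receptor gene CXCR4 fell with estradiol (-3.67 ± 0.66), at 3 and 2 reads, against 32 and 43 reads untreated. HIF1A, singled out after its values were seen, stood at 17.8 and 14.5 CPM with estradiol and 49.1 and 53.0 CPM with DMSO, against 19.3 and 16.5 CPM untreated, and was not called (DMSO adjusted p = 0.24).

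Parental SW620 cells, set against parental SW480 cells to show how the untransduced lines differ, had 8 of 37 members called, 3 higher and 5 lower (21.6%, where 18% of all genes were called). CA9, EGLN3 and PDK3 were higher in SW620, and SLC2A3, NDRG1, ADM, BNIP3L and P4HA2 were lower. The called members went in both directions, as did the calls over all genes (1194 higher, 1953 lower). None of the 17 glycolytic enzymes was called by edgeR, 1 had an unadjusted p under 0.05, and DESeq2 called 9 members of the whole list.

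SLC2A3 had the smallest p of all members in any comparison. It stood at 20.5 and 17.6 CPM in parental SW620, against 897 and 894 CPM in parental SW480 (log2 -5.55 ± 0.36, adjusted p = 6e-06). NDRG1 stood at 1.36 and 3.50 CPM in parental SW620, against 209 and 132 CPM in parental SW480 (-6.14 ± 0.74, adjusted p = 2e-04). The widespread transporter gene SLC2A1 overlapped between the lines, at 685 and 978 CPM in parental SW620 and 1440 and 973 CPM in parental SW480. ADM stood at 2.66 and 3.03 CPM in parental SW620, against 41.2 and 30.4 CPM in parental SW480 (-3.65 ± 0.66, adjusted p = 0.0024). P4HA2 stood at 19.4 and 25.2 CPM in parental SW620, against 162 and 98.9 CPM in parental SW480 (-2.55 ± 0.33, adjusted p = 0.00028). None of the called genes overlapped between the lines. By chance alone 33.3% of genes would separate in this way, and the share of all genes that did is not given here. BNIP3L stood at 5.64 and 4.28 CPM in parental SW620, against 19.5 and 55.0 CPM in parental SW480 (-2.91 ± 0.51, adjusted p = 0.0019; -1.72 with GC and length offsets).

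CA9 went the other way, at 81.9 and 128 CPM in parental SW620, against 4.07 and 3.49 CPM in parental SW480 (log2 4.79 ± 0.69, adjusted p = 0.00058). EGLN3 stood at 12.9 and 14.5 CPM in parental SW620, against 4.94 and 5.15 CPM in parental SW480 (1.45 ± 0.29, adjusted p = 0.0042). PDK3 stood at 20.6 and 20.5 CPM in parental SW620, against 8.58 and 8.94 CPM in parental SW480 (1.23 ± 0.29, adjusted p = 0.011). All 3 were separated between the lines. The call of CA9 held in 12 of 12 alternatives, that of EGLN3 in 8 and that of PDK3 in 5. Both EGLN3 and PDK3 lost their calls without the low-count filter and on FPKM values in limma. Of members not called, PGK1 (1.01 ± 0.37, adjusted p = 0.076) and EGLN1, the main HIF prolyl hydroxylase (-1.55 ± 0.60, adjusted p = 0.095), had the smallest p. VEGFA stood at 13.8 and 12.1 CPM in parental SW620 and 6.66 and 7.5 CPM in parental SW480, LDHA at 1630 and 1950 CPM in parental SW620 and 1310 and 1080 CPM in parental SW480, and LDHB at 988 and 783 CPM in parental SW620 and 1070 and 1020 CPM in parental SW480; none of the 3 was called. The members not called ranged from -1.62 to 1.01, and the median over all 37 was 0.29, against -0.05 over all genes. With GC and length offsets, 14 members were called, 8 higher and 6 lower, where 35.4% of genes were called.

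Of 71 further pathway genes, 21 differed by the test between parental SW620 and parental SW480, 7 being higher and 14 lower. This was 29.6% of them, where 18% of all genes were called. CXCR4 (-5.60 ± 0.59), CITED2, which limits HIF activity (-2.96 ± 0.40), and the pyruvate dehydrogenase phosphatase gene PDP1 (-5.54 ± 0.78) were lower in SW620. EPAS1, the gene of the HIF2 alpha subunit, had 2 and 0 reads in parental SW620, against 662 and 1438 reads in parental SW480.

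**Figure D5:**
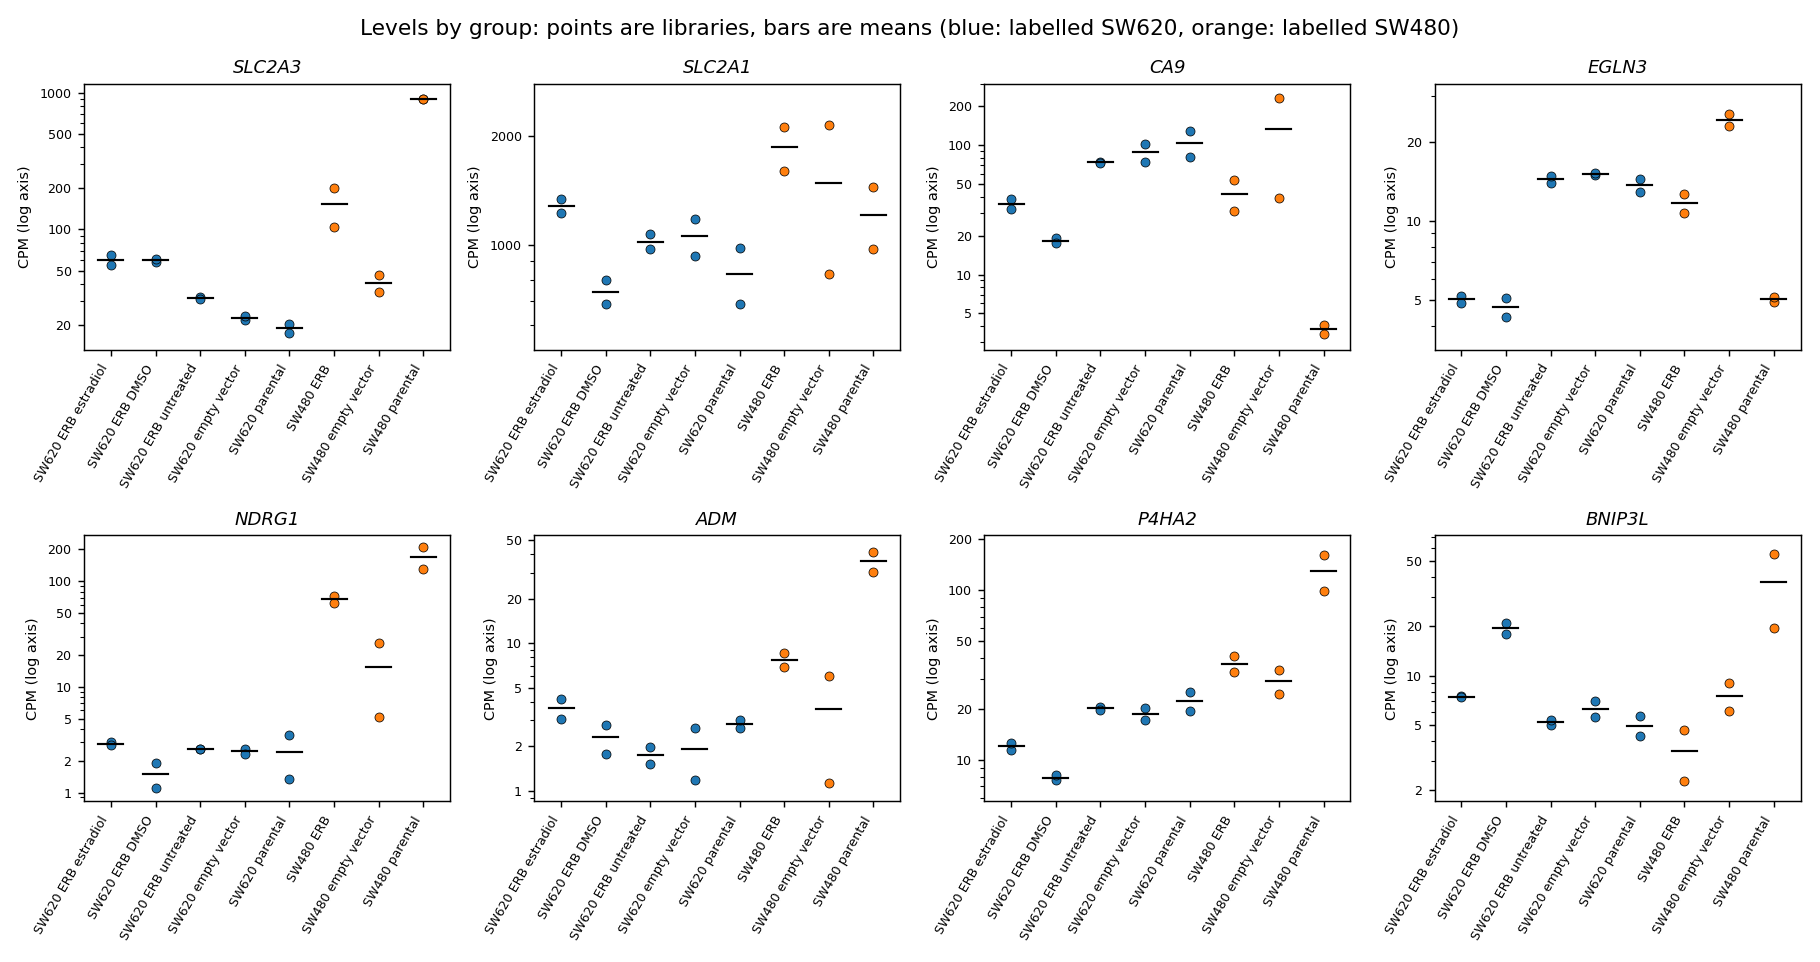
Level (CPM, log axis) of 8 members in the 8 groups; points are libraries, bars are means of 2, blue is labelled SW620 and orange SW480. SLC2A3 lies near 895 CPM in parental SW480 and at 200 CPM or less in every other library, and SLC2A1 lies between 685 and 2140 CPM throughout.

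The empty vector libraries labelled SW480, set against parental SW480 for the effect of the vector, had 19 members called, 11 higher and 8 lower, where 30.9% of genes were called. SLC2A3, NDRG1, ADM, BNIP3L and P4HA2 were lower, CA9, EGLN3 and PDK3 higher, as between the parental lines, which share the parental SW480 libraries with this comparison. VEGFA and 6 glycolytic enzymes were also higher. On the line marker genes these libraries differed from parental SW480 in the direction of SW620, so an effect of the vector cannot be told apart from a changed profile, a mixture of cells or a wrong label.

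SLC2A3 stood at 46.2 and 34.9 CPM in the SW480 empty vector libraries, against 897 and 894 CPM in parental SW480 (log2 -4.46 ± 0.34, adjusted p = 1.8e-05). CA9 stood at 38.8 and 231 CPM with empty vector, against 4.07 and 3.49 CPM in parental SW480 (5.16 ± 0.71, adjusted p = 0.00041). Its empty vector libraries differed from each other by more than those of any SW620 group but lay far above both parental ones. EGLN3 stood at 25.7 and 23.0 CPM with empty vector, the highest of any group, against 4.94 and 5.15 CPM in parental SW480 (2.27 ± 0.29, adjusted p = 0.00029). P4HA2 stood at 24.5 and 34.0 CPM with empty vector, against 162 and 98.9 CPM in parental SW480 (-2.16 ± 0.32, adjusted p = 0.00069). NDRG1 stood at 5.25 and 25.9 CPM with empty vector, against 209 and 132 CPM in parental SW480 (-3.46 ± 0.65, adjusted p = 0.0027). Like CA9, it was several times higher in library II than in library I with empty vector. ADM stood at 1.13 and 6.01 CPM with empty vector, against 41.2 and 30.4 CPM in parental SW480 (-3.35 ± 0.65, adjusted p = 0.0034). BNIP3L stood at 6.08 and 9.01 CPM with empty vector, against 19.5 and 55.0 CPM in parental SW480 (-2.31 ± 0.50, adjusted p = 0.0058). With GC and length offsets its change was -0.40 ± 0.45 (adjusted p = 0.50).

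VEGFA was called higher, at 19.9 and 80.4 CPM with empty vector, against 6.66 and 7.5 CPM in parental SW480 (log2 2.82 ± 0.49, adjusted p = 0.0017). The higher value belonged to library II, in which the 20 stress genes summed to 7570 CPM, against 1730 CPM in library I; their part in the VEGFA level was not tested. PDK3 stood at 21.7 and 16 CPM with empty vector, against 8.58 and 8.94 CPM in parental SW480 (1.11 ± 0.29, adjusted p = 0.015). PGK1 stood at 1930 and 2340 CPM with empty vector, against 975 and 506 CPM in parental SW480 (1.53 ± 0.37, adjusted p = 0.011), and ALDOC at 10.4 and 26.2 CPM with empty vector, against 7.10 and 3.79 CPM in parental SW480 (1.75 ± 0.47, adjusted p = 0.018). PFKM, the muscle-type phosphofructokinase, was the only enzyme called lower (-0.97 ± 0.27, adjusted p = 0.02). The other 7 called members were GAPDH, ENO1, PKM, GPI and SLC16A3, between 1.42 and 1.60, and EGLN1 and MXI1, at -1.98 and -1.46. Of these, GPI and SLC16A3 overlapped between the groups. The 7 calls held in 5 (MXI1) to 9 (ENO1) of 15 alternatives. All but that of ENO1 were lost on FPKM values in limma with either pseudocount. SLC2A1 stood at 830 and 2140 CPM with empty vector and 1440 and 973 CPM in parental SW480, LDHA at 2150 and 1100 CPM with empty vector and 1310 and 1080 CPM in parental SW480, and LDHB at 1190 and 451 CPM with empty vector and 1070 and 1020 CPM in parental SW480, none of them called. The median over members was 0.44, against -0.11 over all genes, and those not called ranged from -1.78 to 1.51. With GC and length offsets 23 members were called (17 higher, 6 lower), where 43.1% of genes were called. With these offsets BNIP3L and MXI1, at -0.52, were lost, and EGLN1 stood at -0.92 and GAPDH at 0.82. A fit of the 6 SW480 libraries alone called 2 members. Without empty vector II or parental SW480 II fewer members were called than in the main fit. The share of all genes called in the SW480 fit and in these omissions is not given here.

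Summed epithelial markers moved with the vector: they stood at 7430 and 25900 CPM in SW480 empty vector libraries, against 4990 and 2620 CPM in parental SW480, and 5 of 7 tested markers were called higher, as were 2 of 3 tested fibroblast markers; their part in the glycolysis values was not tested. Of the further pathway genes 27 were called, 13 higher and 14 lower (38%, where 30.9% of all genes were called). Among them were CXCR4 (-5.91), HKDC1 (3.02), EPAS1 (-6.54) and TMEM45A (-3.91).

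ERB cells labelled SW480, set against empty vector for the effect of the receptor, had 1 of 37 members called, SLC2A3, where 1.1% of genes were called, all of them higher. On the 298 line marker genes these ERB libraries stood at 17.2% and 21.3% of parental SW480, and the empty vector ones at 2.22% and 2.17%. An effect of the receptor therefore cannot be told apart from a changed profile, a mixture of cells or a wrong label. SLC2A3 stood at 105 and 200 CPM with ERB, against 46.2 and 34.9 CPM with empty vector, and the groups did not overlap (log2 1.91 ± 0.31, adjusted p = 0.0089). Its ERB level remained below that of parental SW480, and on the 298 line marker genes the ERB libraries were also nearer to parental SW480 than the empty vector ones were. Its call was lost without ERB II and with FPKM values in limma, where 0 members were called. Of members not called, VEGFA (-1.98 ± 0.48, adjusted p = 0.08), EGLN3 (-1.05 ± 0.28, adjusted p = 0.13), NDRG1 (2.12 ± 0.62, adjusted p = 0.18) and CA9 (-1.67 ± 0.60, adjusted p = 0.35) had the smallest p. VEGFA stood at 11.7 and 13.6 CPM with ERB and 19.9 and 80.4 CPM with empty vector, and NDRG1 at 73.2 and 61.7 CPM with ERB and 5.25 and 25.9 CPM with empty vector. The glycolytic enzymes had a median of 0.02, with 9 of 17 positive, and the median over all members was -0.05, while with GC and length offsets the enzymes had a median of -0.20. Of further pathway genes, 3 were called higher (4.23%, where 1.1% of all genes were called), among them CXCR4 (4.17) and EPAS1 (4.12). EPAS1 had 64 and 156 reads with ERB and 6 reads in both empty vector libraries.

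ERB cells labelled SW480 had 18 members called against parental SW480, 9 higher and 9 lower, where 44.4% of genes were called. The comparison shares libraries with both preceding ones. Here too, an effect of ERB cannot be told apart from a changed profile, a mixture of cells or a wrong label. SLC2A3 stood at 105 and 200 CPM with ERB, against 897 and 894 CPM in parental SW480 (-2.55 ± 0.31, adjusted p = 0.00089). CA9 stood at 53.7 and 31.0 CPM with ERB, against 4.07 and 3.49 CPM in parental SW480 (3.48 ± 0.66, adjusted p = 0.0042). BNIP3L stood at 2.28 and 4.66 CPM with ERB, against 19.5 and 55.0 CPM in parental SW480 (-3.41 ± 0.52, adjusted p = 0.0018; -1.26 with GC and length offsets). P4HA2 stood at 41.1 and 33.0 CPM with ERB, against 162 and 98.9 CPM in parental SW480 (-1.82 ± 0.32, adjusted p = 0.0033). None of the called members overlapped between the groups. By chance alone 33.3% of genes would separate in this way, and the share of all genes that did is not given here. ADM stood at 6.84 and 8.55 CPM with ERB, against 41.2 and 30.4 CPM in parental SW480 (-2.22 ± 0.62, adjusted p = 0.017), and EGLN3 at 10.7 and 12.7 CPM with ERB, against 4.94 and 5.15 CPM in parental SW480 (1.22 ± 0.28, adjusted p = 0.0093). PGK1 stood at 2730 and 1690 CPM with ERB, against 975 and 506 CPM in parental SW480 (1.58 ± 0.37, adjusted p = 0.0095).

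Of the oxygen-dependent enzymes, EGLN1 (-2.47 ± 0.62, adjusted p = 0.012) and KDM3A, a histone demethylase (-2.67 ± 0.76, adjusted p = 0.019), were lower with ERB than in parental SW480, as was MXI1, a MYC antagonist (-2.11 ± 0.48, adjusted p = 0.0084). SLC16A3 (2.17 ± 0.55, adjusted p = 0.013) and PKM (1.82 ± 0.48, adjusted p = 0.014) were higher. The 6 further called members were ALDOC, ENO1, GAPDH and PFKP, between 1.09 and 1.55, and PFKM and PDK1, at -0.78 and -1.12; with GC and length offsets PDK1, a pyruvate dehydrogenase kinase, turned to 1.33. The offsets also ended the calls of PFKP (0.28, adjusted p = 0.23), GAPDH (0.38, adjusted p = 0.16) and KDM3A (-0.76, adjusted p = 0.052), and left CA9 at 2.14, EGLN1 at -1.04, MXI1 at -1, SLC16A3 at 1.17 and ALDOC at 0.67. The call of PFKP held in 2 of 15 alternatives and that of GAPDH in 6 of 15. The members not called ranged from -1.74 to 1.67, and the median over members was 0.55, against -0.13 over all genes. LDHA stood at 1120 and 1320 CPM with ERB and 1310 and 1080 CPM in parental SW480, and LDHB at 248 and 693 CPM with ERB and 1070 and 1020 CPM in parental SW480. Neither was called. The call count was 20 with GC and length offsets (where 38.9% of genes were called) and 0 in the fit of SW480 libraries alone. Without ERB I or parental SW480 II fewer members were called than in the main fit. The share of all genes called in the SW480 fit and in these omissions is not given here. Summed epithelial markers stood at 25100 and 13700 CPM with ERB, against 4990 and 2620 CPM in parental SW480, with 6 of 7 tested markers called higher, and 2 of 3 tested fibroblast markers were called higher too; their part was not tested. Of further pathway genes 28 were called, 10 higher and 18 lower (39.4%, below the 44.4% of all genes called). They were led by ENO3 (2.89), INSIG2 (-4.83), HKDC1 (2.01), RORA (-5.24) and PDP1 (-4.66).

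In SW620 no member passed the test for the vector or for ERB. Empty vector against parental SW620 had 0 members called, 0 with an unadjusted p under 0.05 and 0 called by DESeq2, where 0% of all genes were called. ERB against empty vector also had 0 members called by edgeR, 0 with an unadjusted p under 0.05 and 0 called by DESeq2, where 0.00573% of genes were called. The member differences of ERB from empty vector ranged from -0.50 to 0.48 with a median of -0.03, and those of empty vector from parental cells from -0.57 to 1.32 with a median of -0.11. VEGFA stood at 14.3 and 14.8 CPM with ERB, 17.6 and 18.6 CPM with empty vector and 13.8 and 12.1 CPM in parental SW620. LDHA stood at 1380 and 1500 CPM with ERB, 1410 and 1270 CPM with empty vector and 1630 and 1950 CPM in parental SW620. SLC2A3 had the smallest p for ERB, at 32.1 and 30.9 CPM with ERB against 21.7 and 23.3 CPM with empty vector (log2 0.48 ± 0.30, adjusted p = 1). CA9 stood at 74.5 and 73.6 CPM with ERB, 103 and 74.5 CPM with empty vector and 81.9 and 128 CPM in parental SW620.

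Empty vector cells labelled SW480 had 0 members called against empty vector SW620, where 0.326% of genes were called; 10 members had an unadjusted p under 0.05, and DESeq2 called 2. Without SW480 empty vector I, some members were called, all higher, and the share of all genes called in that fit is not given here. NDRG1 stood at 5.25 and 25.9 CPM in SW480 empty vector, against 2.61 and 2.33 CPM in SW620 empty vector (log2 2.65 ± 0.64, adjusted p = 0.17). VEGFA (1.47 ± 0.47, adjusted p = 0.32) and SLC2A3 (0.85 ± 0.30, adjusted p = 0.40) followed. P4HA2, called between the parental lines and not here, stood at 24.5 and 34.0 CPM in SW480 empty vector and 20.2 and 17.2 CPM in SW620 empty vector.

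The vector effect was set against itself between the lines, as SW480 minus SW620, and 6 members were called, 2 higher and 4 lower, where 7.2% of genes were called. CA9 differed by 5.39 ± 0.89 (adjusted p = 0.0047), EGLN3 by 2.14 ± 0.40 (adjusted p = 0.0084), SLC2A3 by -4.71 ± 0.44 (adjusted p = 0.00026), NDRG1 by -3.49 ± 0.89 (adjusted p = 0.036), BNIP3L by -2.65 ± 0.69 (adjusted p = 0.038) and P4HA2 by -1.90 ± 0.44 (adjusted p = 0.024). VEGFA followed at 2.33 ± 0.66 (adjusted p = 0.053). The calls of CA9 and SLC2A3 held in 17 of 17 alternatives, that of NDRG1 in 10 and that of BNIP3L in 8, with BNIP3L at -0.61 (adjusted p = 0.52) with GC and length offsets. With GC and length offsets 17 members were called, 13 higher and 4 lower, where 25.1% of genes were called. Without SW480 empty vector I more members were called than in the main fit. Without 1 of the SW620 empty vector or parental libraries fewer were called. The share of all genes called in these omissions is not given here. The ERB effect, taken in the same way, differed between the lines for 0 members, where 0.189% of genes were called; 4 members had an unadjusted p under 0.05, and DESeq2 called 1.

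Over all comparisons of the main 16-library fit, 13 tested members were never called. They were SLC2A1, HK1, HK2, PFKL, PFKFB3, PFKFB4, ALDOA, TPI1, ENO2, LDHB, P4HA1, LOX and ANKRD37. Some of them were called under other settings. HK1, HK2, PFKL, ALDOA, TPI1, ENO2 and LDHB were called for DMSO with GC and length offsets in SW620 libraries alone. LOX, a collagen crosslinking enzyme, had 117 reads in all. Among the most abundant enzymes, copies elsewhere in the genome held reads equal to 22.9% of those of GAPDH and 37.7% of those of TPI1, so these levels are uncertain where reads could be split. EGLN3 was called most often, and its 5 comparisons each share libraries with at least 1 of the others. In order of group mean, EGLN3 stood at 4.71 ± 0.55 CPM with DMSO, 5.03 ± 0.21 CPM with estradiol and 5.04 ± 0.15 CPM in parental SW480, which did not differ beyond their spread. It then stood at 11.7 ± 1.4 CPM in SW480 ERB cells, 13.7 ± 1.1 CPM in parental SW620, 14.4 ± 0.6 CPM in untreated SW620 ERB cells and 15.1 ± 0.13 CPM in SW620 empty vector cells, with 24.4 ± 1.9 CPM in SW480 empty vector cells (SD, n = 2 each). Neither ERB against empty vector nor empty vector against parental cells passed the test for EGLN3 in SW620, and SW480 empty vector lay above every other library.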

How the data were processed

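Gene counts from 16 libraries were the main data and FPKM values an alternative; both tables are as the authors deposited them. TruSeq stranded mRNA libraries were made, per the labels' protocols. The submitters' processing notes name TopHat2 2.0.4, SAMtools, Picard 1.29, HTSeq 0.6.1, Cufflinks 2.1.1 and build GRCh37; the sources used here do not say which tool made which deposited count or FPKM table. Genes passing edgeR's filterByExpr (17464 of 63677) were fitted in 1 quasi-likelihood model of 8 groups (edgeR 4.0.16, R 4.3.3) with TMM scaling (factors 0.586 to 1.36); p-values were Benjamini-Hochberg adjusted over all genes tested, threshold 0.05. SEs are the log2 change divided by the square root of F. Levels are TMM-scaled CPM. Alternatives were RLE scaling, no filter, DESeq2 1.42.0, limma 3.58.1 on log2(FPKM + 1) or log2(FPKM + 0.1), a replicate block, splines (5 df) on GC content and length of GENCODE transcripts (GC known for 98% of genes), 1 line only, and leaving out libraries. Every called member is named, up to 12 per comparison with values, with up to 4 uncalled members and 5 further pathway genes by smallest p; levels per library are given for the members called in most comparisons and for VEGFA, CA9, SLC2A1, LDHA and LDHB. Per-library values of NDRG1, PKM, DDIT4, EPAS1 and HIF1A were added after they were seen. The members and lists were chosen with earlier results of these data known. Fits of 1 line with offsets, 2 libraries left out together and omissions within SW620 were added after seeing the data.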

Additional observations from a re-analysis of the deposited data

Results flagged for a closer look

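The effect of the empty vector differed between the lines for 6 members by a test of the difference itself (edgeR, SW480 minus SW620, each as empty vector minus parental). The difference was 5.39 (log2) for CA9 and 2.14 for EGLN3. It was -4.71 for SLC2A3, -3.49 for NDRG1, -2.65 for BNIP3L and -1.90 for P4HA2. The calls held in 17 of 17 alternatives for CA9 and SLC2A3, 13 for P4HA2, 11 for EGLN3, 10 for NDRG1, which was lost with the replicate block, and 8 for BNIP3L, which was lost on FPKM values and stood at -0.61 with GC and length offsets. The libraries labelled SW480 empty vector stood at 2.22% and 2.17% of the parental SW480 level on the genes that mark that line. On the genes that mark SW620 they stood at 28.8% and 66.2% of the parental SW620 level, against 4.58% and 5.59% in parental SW480. An effect of the vector, a changed profile, a mixture of cells and a wrong label cannot be told apart.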

How the results depend on the processing

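With 2 libraries a group and SEs of about 0.3 to 0.7 for most members, smaller differences could not be seen, and counts of calls moved with the settings. The counts below are of members called, and the share of all genes called moved with the settings as well. That share is not given for each setting, so a count cannot be read alone. For empty vector against parental SW480 (19), limma on FPKM gave 11 with either pseudocount and 9 without a filter, libraries of 1 line only 2, the same with GC and length offsets 11, omission of SW480 empty vector II and SW480 ERB I together 11, and leaving out 1 library 8 to 26. For ERB against parental SW480 (18), limma on FPKM without a filter gave 9, 1 line only 0, with offsets 7, and leaving out 1 library 4 to 23; PDK1 reversed to 1.33 with offsets and 1.37 with offsets and 1 line. For ERB against empty vector in SW480 (1), no filter gave 4, DESeq2 3, limma on FPKM 0 in all 3 forms, offsets 4, 1 line only 0 with or without offsets, the joint omission 2 and leaving out 1 library 0 to 4. For DMSO against untreated (12), no filter gave 20, DESeq2 19, offsets 21, 1 line only 30, with offsets 31, and leaving out 1 library 0, or 25 to 29 within SW620. For estradiol against untreated (4), no filter gave 2, limma on FPKM 1 in all 3 forms, offsets 15, 1 line only 14, with offsets 25, and leaving out 1 library 0, or 4 to 6 within SW620. For estradiol against DMSO (0), no filter gave 6, 1 line only 25, with offsets 13, and leaving out 1 library within SW620 0 to 18. Between the parental lines (8), offsets gave 14 and leaving out 1 library 7 to 10. Between empty vector SW480 and SW620 (0), no filter gave 2, DESeq2 2, offsets 3 and leaving out 1 library 0 to 14. For empty vector against parental SW620 (0), offsets with 1 line gave 3. For the vector effect between lines (6), no filter gave 15, DESeq2 11, offsets 17 and leaving out 1 library 2 to 19; for the ERB effect between lines (0), DESeq2 gave 1 and leaving out 1 library 0 to 1. The cause of these changes was not tested. Offsets moved the median of all genes to 0.17 (from -0.05) between the parental lines, to 0.18 (from -0.11) for the SW480 vector, to 0.03 (from -0.13) for ERB against parental SW480 and to 0.22 (from -0.10) for the vector effect between lines. Whether the library numbers pair the samples is not known. Over 28 pairs of groups, deviations of same-numbered libraries correlated from -0.74 to 0.66, above 0.1 in 9 and below -0.1 in 12. Libraries I and II of a group also differed in their GC trend, so a shared origin cannot be read from these correlations. With a replicate block, 5 members were called for DMSO, 1 for estradiol against untreated, 14 for the SW480 vector, 15 for ERB against parental SW480, 8 between the parental lines and 5 for the vector effect between lines. CA9 and SLC2A3 kept their calls for the SW480 vector in 15 of 15 alternatives, and VEGFA kept its calls for DMSO and for estradiol against untreated in 14 of 18.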
